A study of Bos taurus with 2 samples.

Results

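The genes described here are 46 markers of white blood cell lineages, measured in RNA from bovine milk whey. They are 18 genes of T and natural killer (NK) cells, 8 of B cells, 6 of neutrophils and 14 of macrophages and related myeloid cells. A gene was taken where a non-control probe of the array carried its name, which held for 42 of the 46 genes and 86 probes, of 15662 named genes and 33376 probes of named genes. The exosome group was the pellet of whey of Holstein raw milk spun at 10000 g for 90 min, washed by 2 further spins (a speed taken from the labels that is low for vesicles of this kind), and named exosome by the submitters after the small membrane vesicles that cells release. The supernatant group was the whey above that pellet. For each fraction RNA of 3 milk samples was pooled in equal parts, 100 ng was labelled with the dye Cy3, and 1 Agilent bovine array of 60-base probes was hybridised, so there were 2 arrays, no replicates and no test. Every value below compares these 2 arrays, and the spread between cows or preparations is unknown. The labels do not say how many cells either fraction still held, and fewer cells of a type and less RNA per cell cannot be told apart in such pools.

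Milk holds white blood cells beside the secretory epithelium that makes it, mainly macrophages, neutrophils and lymphocytes, and their numbers rise in an inflamed udder. T cells recognise antigen through a receptor that signals via the CD3 chains and the kinases LCK and ZAP70, and B cells through a membrane antibody that signals via CD79A and CD79B. Cytotoxic T cells and NK cells kill with perforin and granzymes. Macrophages carry scavenger receptors and the growth factor receptor CSF1R, and neutrophils carry granules with enzymes such as myeloperoxidase.

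Most calls came from 1 short probe. The 6 shown here carry such calls or their absence: a pair of overlapping CD4 probes with unlike calls, the only probes of CD163 and PAX5, the LCK probe called on both arrays and a CD3D probe that was not called while another was bright. They are given as deposited, 5′ to 3′ along the transcript, with positions in the array's build, HGSC Btau_3.1. The capitals mark the 20 bases that both CD4 probes hold. The CD4 probe starting at base 873 of the transcript lies on the minus strand at chr5:10621424-10621483, and the one starting at base 913 crosses an intron at chr5:10619062-10621443. The other 4 cross introns too, CD163 on the plus strand at chr5:109177958-109180145, and on the minus strand PAX5 at chr8:63785420-63815322, LCK at chr2:125488256-125488619 and CD3D at chr15:27452806-27453285. Whether a probe lies in a coding or untranslated part was not analysed here.
CD4 base 873: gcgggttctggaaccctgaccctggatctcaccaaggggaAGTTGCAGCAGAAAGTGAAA
CD4 base 913: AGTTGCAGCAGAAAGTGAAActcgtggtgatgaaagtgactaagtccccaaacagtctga
CD163 base 398: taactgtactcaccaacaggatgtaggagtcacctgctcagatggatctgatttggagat
PAX5 base 1012: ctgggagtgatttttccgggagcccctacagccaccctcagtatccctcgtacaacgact
LCK base 675: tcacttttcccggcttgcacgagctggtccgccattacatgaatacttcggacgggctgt
CD3D base 269: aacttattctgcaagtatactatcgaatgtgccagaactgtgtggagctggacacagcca

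Markers of each lineage were called in both fractions, and in each lineage more of them in the exosome pellet, as was also so for all named genes. A gene counted as detected where the scanner software called any of its probes well above background. In the exosome pellet 25 of 42 genes were detected (59.5%), against 69.5% of all named genes, and in the supernatant 13 of 42 (31.0%), against 23.0% of all named genes. Of the 42, 12 were detected on both arrays, where 21.9% of all named genes were, 13 on the exosome array alone (background 47.6%), CD163 on the supernatant array alone (background 1.03%) and 16 on neither (background 29.4%). By probes, 36 of 86 had the call in the exosome pellet (background 62.4%), against 14 in the supernatant (background 13.1%). With every probe of a gene required, 12 markers were called in the exosome pellet (background 48.0%) and 3, CD2, PAX5 and CD163, in the supernatant (background 5.82%). In the exosome pellet all 3 shares lay below those of named genes. In the supernatant they lay above them, but by only a few genes or probes. The 3 shares count the same calls in different ways and are not separate results.

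The lineages were each seen in part. T and NK cell genes were detected for 11 of 18 in the exosome pellet against 6 in the supernatant, and macrophage genes for 9 of 13 in the exosome pellet against 4. B cell genes were detected for 3 of 7 in the exosome pellet (42.9%) against 2 in the supernatant (28.6%), and neutrophil genes for 2 of 4 (50%) against 1 (25%). With so few genes, 1 call moves these shares widely. By comparison, a list of 16 epithelial markers such as keratins and claudins had 16 calls in the exosome pellet, against 9 in the supernatant, so that list was called in full in the exosome pellet. Of 10 red cell and platelet genes listed, 9 were on the array, of which 4 were called in the exosome pellet against 2 in the supernatant.

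**Figure D1:**
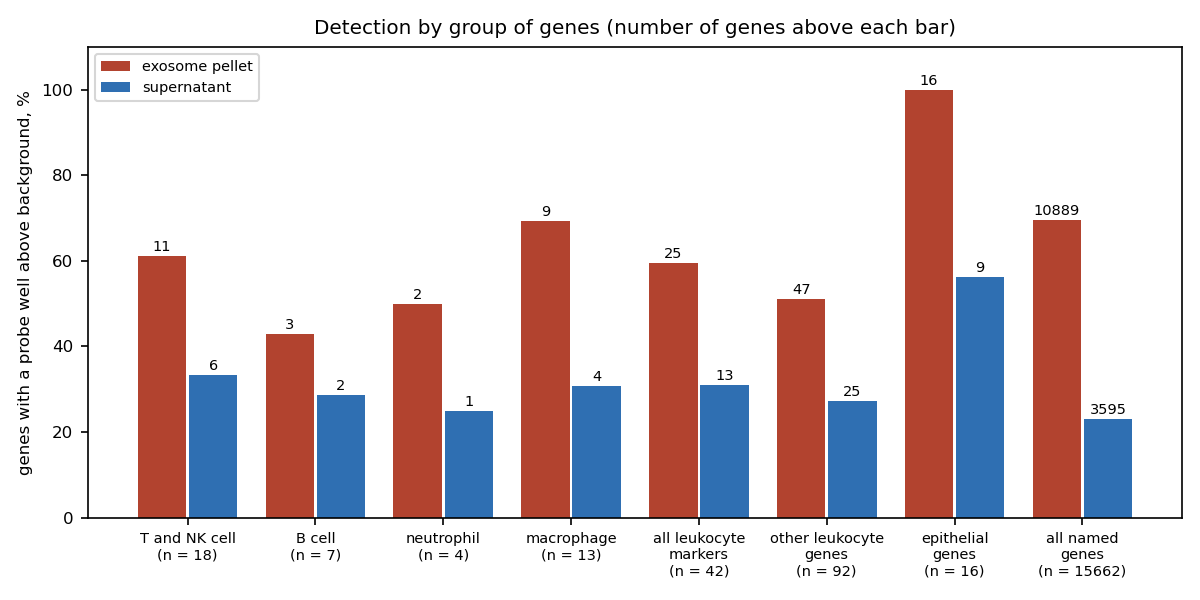
Share of genes (y axis, percent) with at least 1 probe well above background, in the exosome pellet (left bar of each pair) and in the supernatant (right bar), for each lineage, all 42 leukocyte markers, other leukocyte genes, epithelial genes and all named genes, with the number of genes above each bar and the number on the array below. The 42 markers reach 59.5% in the exosome pellet against 31.0% in the supernatant, where all named genes reach 69.5% and 23.0%.

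The T cell receptor complex was read through a few of its probes. CD3D, a signalling chain of the complex, had a processed signal of 888 ± 88.8 in the exosome pellet against 2437 ± 244 in the supernatant on its probe at base 1341, where the error is the scanner software's for 1 spot. It was the brighter on the supernatant array, with an exosome minus supernatant difference of -1.46 (log2, before scaling), and its other 2 probes, at bases 129 and 269, were not well above background on either array. That probe lies at chr15:27451220-27451279. CD3G, another chain, was detected in the exosome pellet alone by 1 of 3 probes, with 13.9 ± 2.72 there and 1.92 ± 1.92 in the supernatant, close to 11.3, the lowest signal called on the exosome array, and its bound was 1.58-fold. CD3E, the third CD3 chain, was not well above background by either of its 2 probes. CD247, the zeta chain of the complex, had 112 ± 11.7 and 89.2 ± 9.46 on its 2 probes in the exosome pellet and was not well above background in the supernatant. Before scaling, the exosome pellet was higher by at least 12.8-fold and 10.2-fold on these probes. Of the 4 chains, CD3D alone was called in the supernatant.

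The kinases downstream of the receptor were detected in the exosome pellet by most of their probes. LCK, which phosphorylates the CD3 chains, had 120 ± 12.3 in the exosome pellet against 23.3 ± 3.12 in the supernatant on its probe at base 675, a difference of 2.36 (log2). In the exosome pellet 4 of its 5 probes were well above background, and in the supernatant only that one. ZAP70, the kinase that binds the phosphorylated chains, had 217 ± 21.8 in the exosome pellet on its single probe and 1.83 ± 1.83 in the supernatant, higher in the exosome pellet by at least 24.8-fold before scaling. TRAT1, an adaptor that associates with the receptor, was not well above background on either array.

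Among T cell surface proteins the co-receptor CD4 and the adhesion protein CD2 were called on both arrays. CD4, which binds MHC class II, had 10129 ± 1013 in the exosome pellet against 410 ± 41.1 in the supernatant on its probe at base 2901, a difference of 4.63 (log2). Its probe at base 873, shown above, had 58.6 ± 6.58 in the exosome pellet against 13.1 ± 2.67 in the supernatant, a difference of 2.16, and the other 3 CD4 probes were not well above background on either array. The probe at base 913 that shares 20 bases with the one at 873 was among these 3, at 2.61 ± 2.60 in the exosome pellet against 2.58 ± 1.95 in the supernatant. CD2, with 1 probe, had 215 ± 21.7 in the exosome pellet against 14.4 ± 2.35 in the supernatant, a difference of 3.91. CD8A and CD8B, the co-receptor chains of cytotoxic T cells, and CD5 and CD6, scavenger-type receptors of T cells, were not well above background on either array by any of their 2 probes each.

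Of the cytotoxic genes, 2 that the array names as granzymes were measured on both arrays, each by 1 probe and with a difference below 1 (log2). GZMA, a granule protease, had nearly equal signals on its probe at base 971, 64.1 ± 6.93 in the exosome pellet against 64.2 ± 6.77 in the supernatant, and its probe at base 407 was not well above background on either array. GZMB, another granule protease, was called by 1 of 4 probes, with 26.7 ± 3.70 in the exosome pellet against 13.6 ± 2.34 in the supernatant, a difference of 0.97. That probe, at chr21:34983314-34983373, belongs by its accession to a gene that the reference table now names LOC508646, and the 2 probes whose accession still stands for GZMB were not well above background on either array. PRF1, the pore-forming perforin, was called in the exosome pellet alone by 1 of 3 probes, at 17.8 ± 3.25 against 2.81 ± 2.25 in the supernatant, at least 2.03-fold higher before scaling. NKG7, a granule membrane protein, had 23.7 ± 3.94 in the exosome pellet against 7.23 ± 2.64 in the supernatant, at least 2.71-fold higher. KLRK1, an activating NK receptor, was not well above background.

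**Figure D2:**
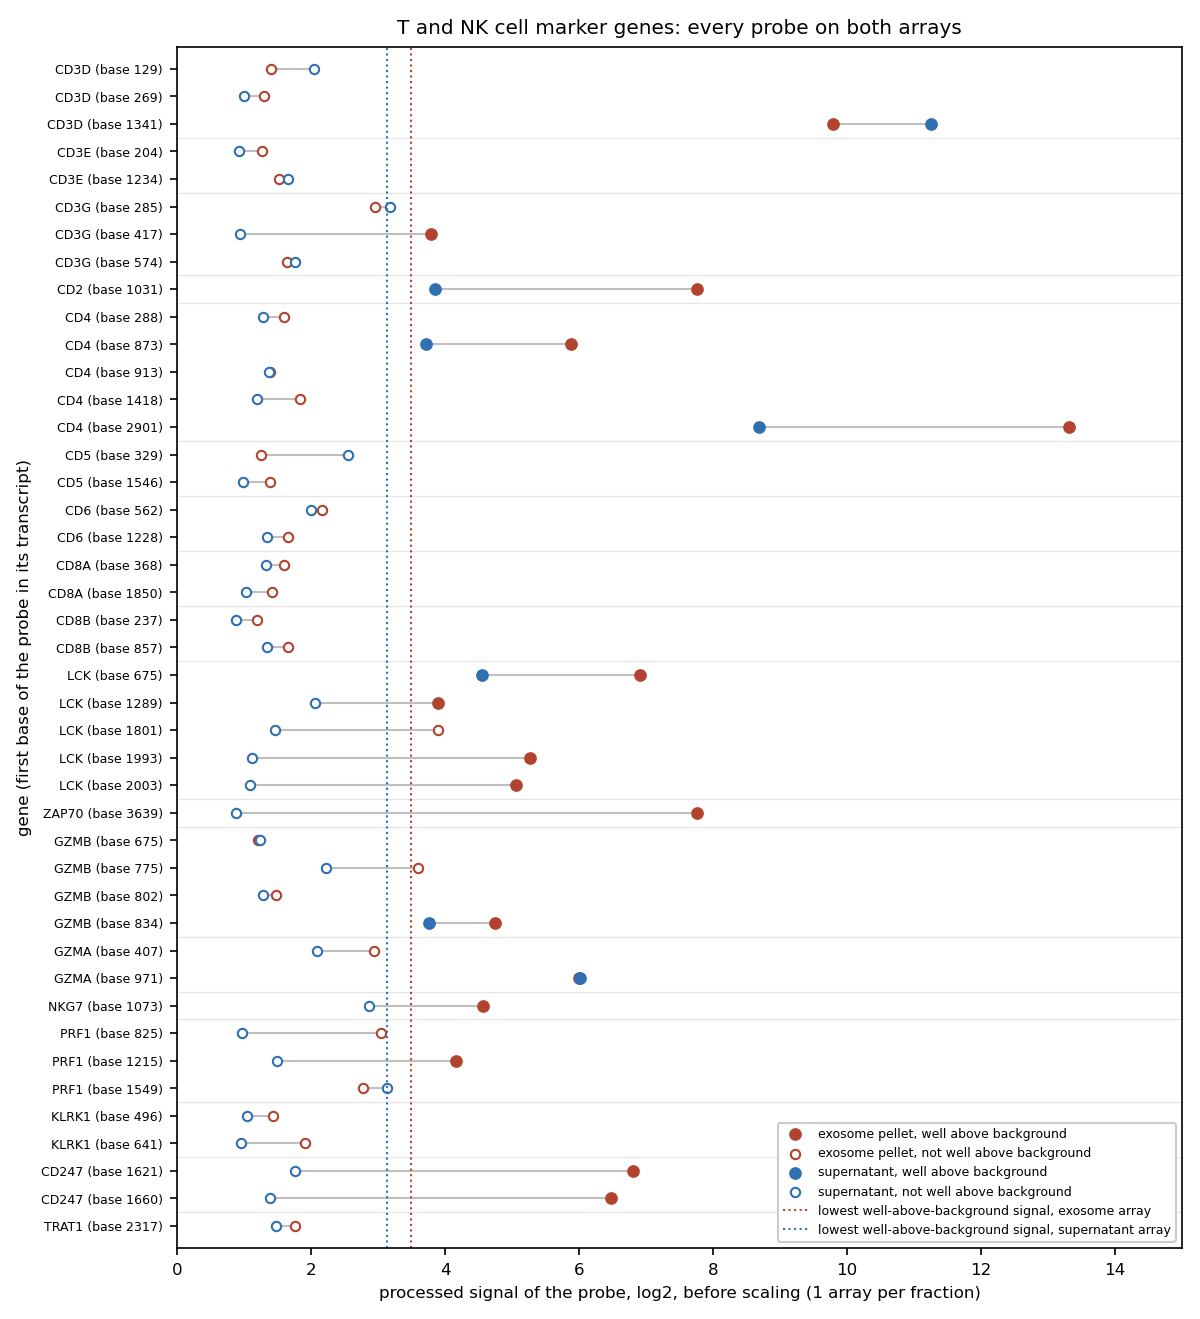
Processed signal (x axis, log2, before scaling) of each of the 43 probes of the 18 T and NK cell genes, 1 row per probe labelled with its gene and first base in the transcript, in the exosome pellet (red) and in the supernatant (blue). Filled points were well above background, open ones were not and carry no order, and the dotted lines give the lowest signal called well above background on each array. CD3D at base 1341 is the row of filled points with the supernatant to the right, and the 2 GZMA points at base 971 lie on top of each other.

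B cell genes were detected for the receptor chain CD79A, the transcription factor PAX5 and the adaptor BLNK. CD79A had 529 ± 52.9 in the exosome pellet against 88.6 ± 9.21 in the supernatant on its probe at base 986, which lies at chr18:51076126-51076185, a difference of 2.58 (log2). Its other probe, at base 564, was not well above background on either array. PAX5, which fixes the B cell fate, had 177 ± 18.0 in the exosome pellet against 15.6 ± 2.96 in the supernatant, a difference of 3.50, on the single probe shown above. BLNK, which links the receptor to its kinases, was called in the exosome pellet alone at 13.1 ± 2.59, against 5.87 ± 1.90 in the supernatant, at least 1.50-fold higher before scaling. CD79B, the partner chain of CD79A, the surface protein MS4A1 (CD20), the kinase BLK and the transcriptional co-activator POU2AF1 were not well above background on either array. CD22 had no probe under that name.

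Of the 6 neutrophil genes 4 were on the array, and 2 of these were detected in the exosome pellet (50%, against 69.5% of all named genes). MMP9, a gelatinase of neutrophil granules that macrophages also make, had 162 ± 16.5 in the exosome pellet against 23.3 ± 3.06 in the supernatant on its probe at base 2262, a difference of 2.80 (log2). A second MMP9 probe, at base 628, was called in the exosome pellet alone at 14.3 ± 2.93 and the third, at base 1752, on neither array. PADI4, which citrullinates histones when neutrophils release chromatin, was called in the exosome pellet alone by 1 of 3 probes, at 21.1 ± 3.11 against 3.09 ± 1.89 in the supernatant, a bound of 2.41-fold. MPO (myeloperoxidase) and CSF3R, the receptor of the neutrophil growth factor, were not well above background by their single probes, and MMP8 and FPR1 had no probe under those names. MMP9 was the 1 neutrophil gene called in the supernatant.

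Macrophage and myeloid genes were detected for 9 of 13 in the exosome pellet (69.2%, against 69.5% of all named genes). AIF1, a calcium-binding protein of macrophages, had 799 ± 79.9 in the exosome pellet against 8.28 ± 3.00 in the supernatant, at least 91.2-fold higher before scaling and the largest gene bound among the 13 markers called in the exosome pellet alone, though 1 MSR1 probe had a larger one. MSR1, a scavenger receptor, had 2040 ± 204 on its probe at base 1364 of one transcript and 63.2 ± 6.92 at base 2040 of another in the exosome pellet, and neither was well above background in the supernatant. The bounds on these 2 probes were at least 233-fold and 7.22-fold. They lie at chr27:22940613-22940672 and chr27:22902421-22902480, and the bound of the gene, their geometric mean, was 41.0-fold.

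CD68, CSF1R and TYROBP were measured on both arrays. CD68, a lysosomal protein of macrophages, had 170 ± 17.2 in the exosome pellet against 34.5 ± 4.12 in the supernatant on its probe at base 1016, a difference of 2.30 (log2). CSF1R, the receptor that macrophages need to survive, had 131 ± 13.4 in the exosome pellet against 15.6 ± 2.75 in the supernatant on its probe at base 2262, a difference of 3.07. TYROBP (DAP12), a signalling adaptor shared with NK cells, had 256 ± 25.8 in the exosome pellet against 58.0 ± 6.27 in the supernatant on its probe at base 492, a difference of 2.14, and its probe at base 319 was called in the exosome pellet alone. For each of these 3 genes, 1 probe was called on both arrays and another in the exosome pellet alone. CSF1R also had a probe at base 2711 that was called on neither array. Its probe called in the exosome pellet alone, at base 3747 of another transcript, shares 52 bases with the one at base 2262.

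The other myeloid genes were called in the exosome pellet alone or on neither array, save CD163. FCER1G, the common Fc receptor chain, was called by both probes at 17.5 ± 2.99 and 24.8 ± 3.54, LAPTM5, a lysosomal protein of blood cells, at 36.0 ± 4.45, and SPI1 (PU.1), a transcription factor of myeloid and B cells, by 1 of 3 probes at 34.7 ± 4.22. None of their probes was called in the supernatant, and the bounds before scaling were 2.38-fold for FCER1G, 4.11-fold for LAPTM5 and 3.96-fold for SPI1. C1QB, a chain of complement C1q, was called in the exosome pellet by 1 of 3 probes at 12.3 ± 2.68, with a bound of 1.41-fold, and its partner chains C1QA and C1QC on neither array. CD86, a co-stimulatory protein with 3 probes, was called on neither array. CD163, the haemoglobin scavenger receptor of macrophages, was the opposite case: its single probe had 2.33 ± 2.32 in the exosome pellet, not well above background, and 10.3 ± 2.15 in the supernatant. That supernatant signal was close to 8.75, the lowest called well above background there, and below 11.3, the lowest so called on the exosome array, so no fold can be given before scaling. MRC1, the mannose receptor, had no probe under that name, and 2 probes that the reference table gives to it by accession were not well above background on either array.

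**Figure D3:**
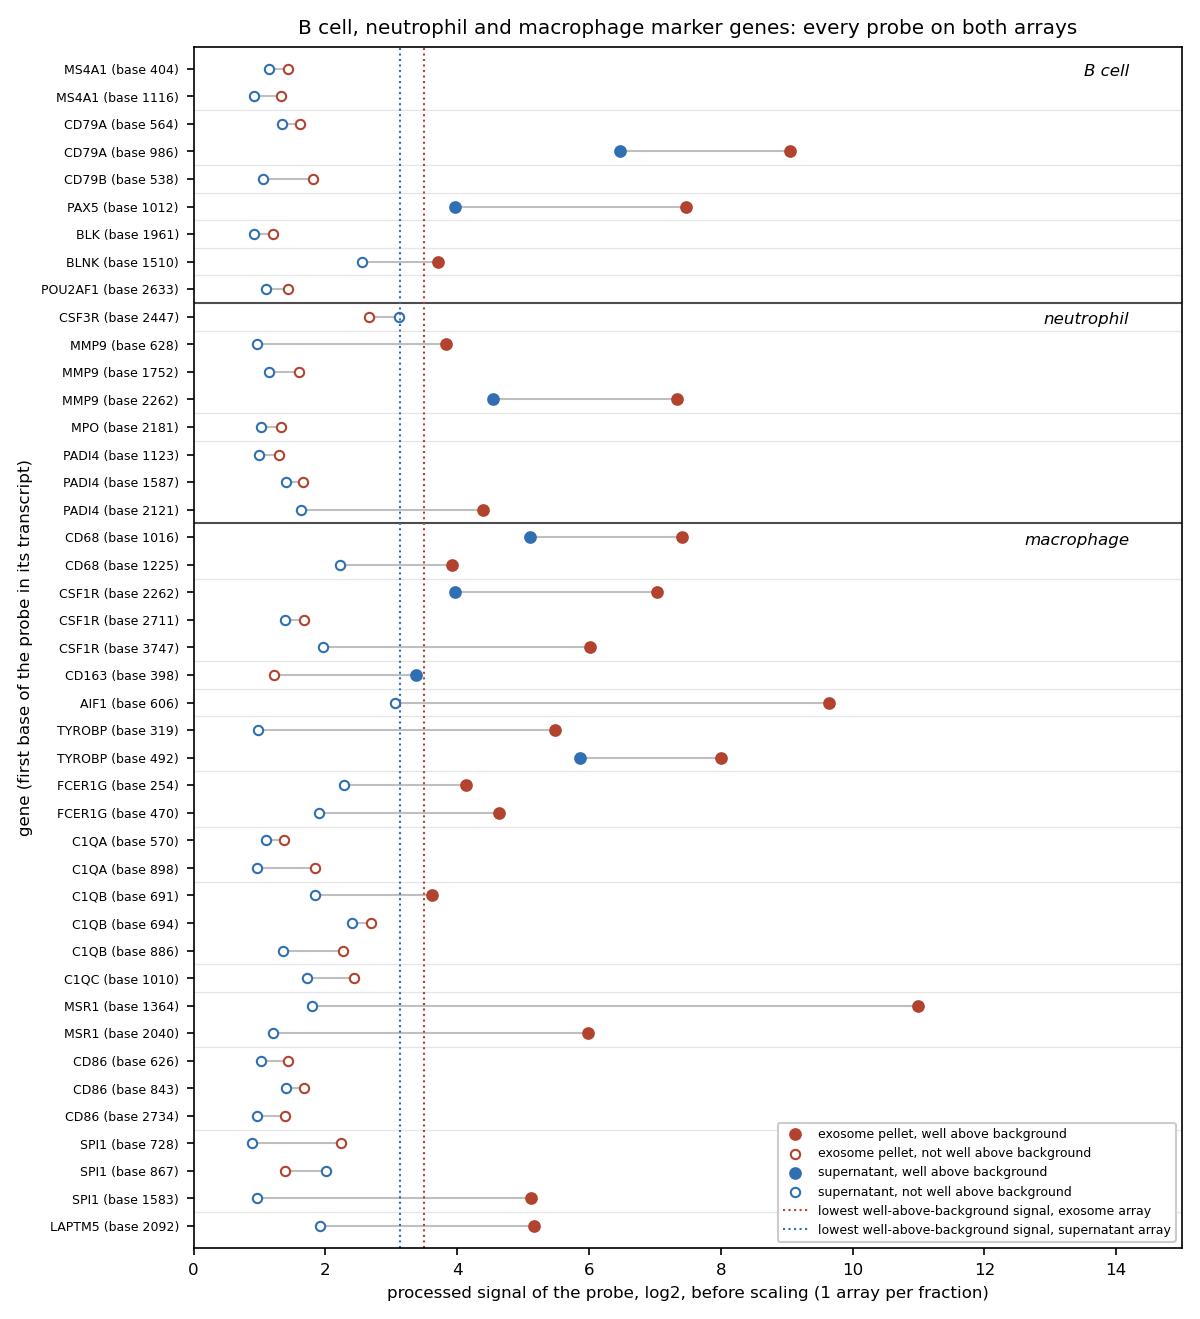
Processed signal (x axis, log2, before scaling) of each of the 43 probes of the 7 B cell, 4 neutrophil and 13 macrophage genes, 1 row per probe, in the exosome pellet (red) and in the supernatant (blue), with filled points well above background, open points not, and dotted lines at the lowest signal so called on each array. CD163 is the row with a filled supernatant point and an open exosome point, and AIF1 and MSR1 at base 1364 are the rows with the widest gaps.

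Of the 12 markers measured on both arrays, 11 lay below the median gene so measured, where 50% of genes lie by construction. Before scaling, 10 of the 12 were brighter in the exosome pellet, with CD3D and GZMA the exceptions, and 6.59% of all 3368 genes measured on both arrays were brighter in the supernatant. The median difference of the 12 was 2.47 (log2), against 3.52 for all 3368 genes, an 11.4-fold higher exosome signal. Relative to that median gene, a scale that no constant scaling moves, the 12 had a median of -1.05. CD2 alone was above it, at 0.39, and PAX5 lay at -0.01, CD4 at -0.13, CSF1R at -0.45, MMP9 at -0.71 and CD79A at -0.94. The CD4 value is the mean of 2 probes on opposite sides, at 1.11 (base 2901) and -1.36 (base 873). Each of these lay more than 2-fold from the median gene. The side of the genes nearest the median gene turned with the processing. CD4 stood at 1.24 with the stricter filter and 1.0 by its brightest probe, both from the probe at base 2901 alone. It stood at 0.32 with normexp background correction and 0.06 with quantile scaling. CD2 stood at -0.16 with normexp, CSF1R at 0.15 with the software's weaker flag, and PAX5 at 0.27 with quantile scaling and 0.58 without a filter. At least 2-fold below it were LCK (-1.15), CD68 (-1.21), TYROBP (-1.37), GZMB (-2.54, by the probe now named LOC508646), GZMA (-3.52) and CD3D (-4.97). The 2-fold mark above the median gene was passed by 0 of the 12 (background 37.2%) and the one below it by 6 (background 36.7%). A measured gene has a supernatant signal of at least 8.75, so a dim exosome signal caps its difference. GZMA and GZMB, at 64.1 and 26.7 in the exosome pellet, could not have reached the median gene. PAX5, CD68, MMP9, CSF1R and LCK, at 120 to 177 there, could not have passed the 2-fold mark above it. The count of 0 past that mark was thus partly fixed by the filter. How far this cap sets the place of the markers was not tested.

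The 13 genes called in the exosome pellet alone have only bounds. Before scaling these ran from at least 1.41-fold for C1QB to at least 91.2-fold for AIF1, with a median of 2.71-fold, against a median of 14.4-fold for the 7455 named genes called there alone. Of the 13 bounds, 10 were 2-fold or more, ZAP70 and MSR1 among them at 24.8-fold and 41.0-fold. The share of the 7455 genes with such a bound was not computed, so this count has no background. A bound follows the exosome signal, so a low one gives no size for the difference.

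The direction between the fractions depended on the scaling. Subtracting each array's 75th percentile moves every difference by 5.56 (log2), and the supernatant percentile, a signal of 5.24, lay below 8.75, the lowest signal called well above background there. On that scale 0 of the 42 markers were higher in the exosome pellet by 2-fold or more (background 10.7%). In the supernatant 13 of the 42 were higher by as much (background 14.7%), CD163 by at least 43.3-fold. These were all 13 markers called there, and of the 3595 named genes called there 2295 were higher by as much. At this shift a gene called there with a low exosome signal falls on the supernatant side by the filter alone. Of the 13 gene bounds, that of AIF1 alone stayed on the exosome side, at 1.93-fold. The MSR1 probe at base 1364 had a bound of 4.93-fold on that scale, but averaged with its dimmer probe the gene had 0.87-fold. Without scaling 19 of the 42 passed 2-fold to the exosome side (background 63.1%), and 1, CD3D, to the supernatant side (background 0.396%). Scaled by the 8 spike-in probes measured on both arrays, whose median difference was 2.27, the counts were 7 (background 40.1%) and 4 (background 5.18%). CD3D was brighter in the supernatant by 2-fold or more under each of these 3 scalings.

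**Figure D4:**
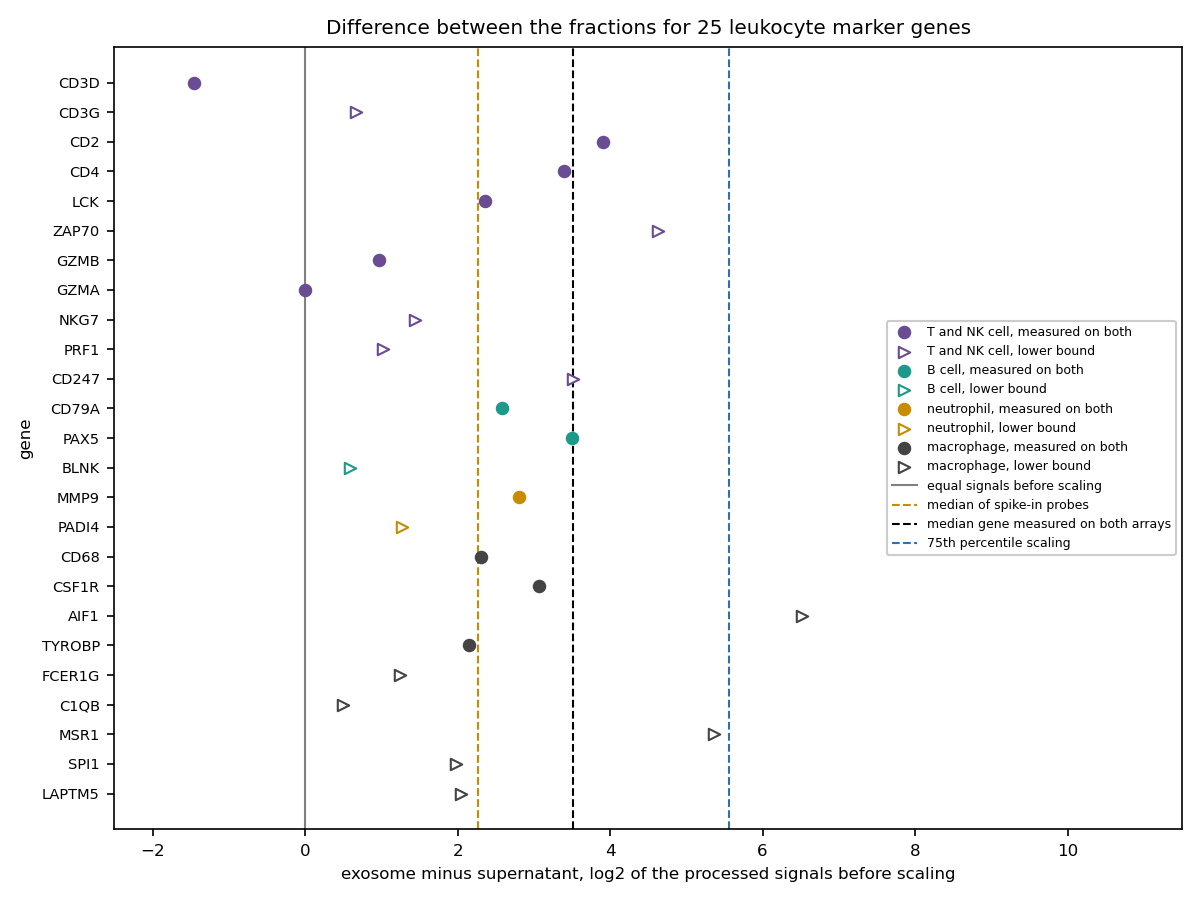
Exosome minus supernatant difference (x axis, log2, before scaling) of the 12 leukocyte markers measured on both arrays (filled points) and lower bounds of the 13 called in the exosome pellet alone (open triangles), coloured by lineage, with vertical lines at equal signals, at the median of the spike-in probes (2.27), at the median gene measured on both arrays (3.52) and at the shift of 75th percentile scaling (5.56). CD3D lies left of every line, CD2 is the filled point right of the median gene, and AIF1 is the triangle right of the 75th percentile line.

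Many calls rested on 1 of several probes, 9 of the 25 genes called in the exosome pellet and 9 of the 13 called in the supernatant. In the supernatant, 10 of the called genes had several probes; in 9 of them 1 probe was called and in none were all. Among all named genes with several probes and a call there, 79.9% rested on 1 probe, so this was the common state of the supernatant array. The other 3, CD2, PAX5 and CD163, had a single probe. In the exosome pellet 13 of 18 called genes with several probes had at least 1 probe that was not called, against 42.2% of all named genes with several probes and a call. In 9 the call rested on 1 probe, a share that was not computed for named genes on this array. CD247, CD68, TYROBP, FCER1G and MSR1 were the 5 with every probe called there.

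Among named genes in general, those with more probes were called more often. Of the 15 markers with 1 probe, 7 were called in the exosome pellet (51.7% of named genes with 1 probe), of the 15 with 2 probes also 7 (74.1%) and of the 9 with 3 probes 8 (82.9%). Against named genes with as many probes, the markers with 2 were the furthest below. Probes also differed by where they lay. Of 17 marker probes that cross an intron, 4 were called in the exosome pellet against 3 in the supernatant, and of 69 that do not, 32 and 11. Among all probes of named genes, 54.4% of those that cross an intron and 64.3% of the rest were called in the exosome pellet, and 6.86% and 14.4% in the supernatant. The intron-crossing marker probes start nearer to the 5′ end, at a median base of 675 against 1010 for the rest. Among all probes of named genes these medians were 911.5 and 1543, so this order is general on the array. The part of position in the calls was not tested.

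**Figure D5:**
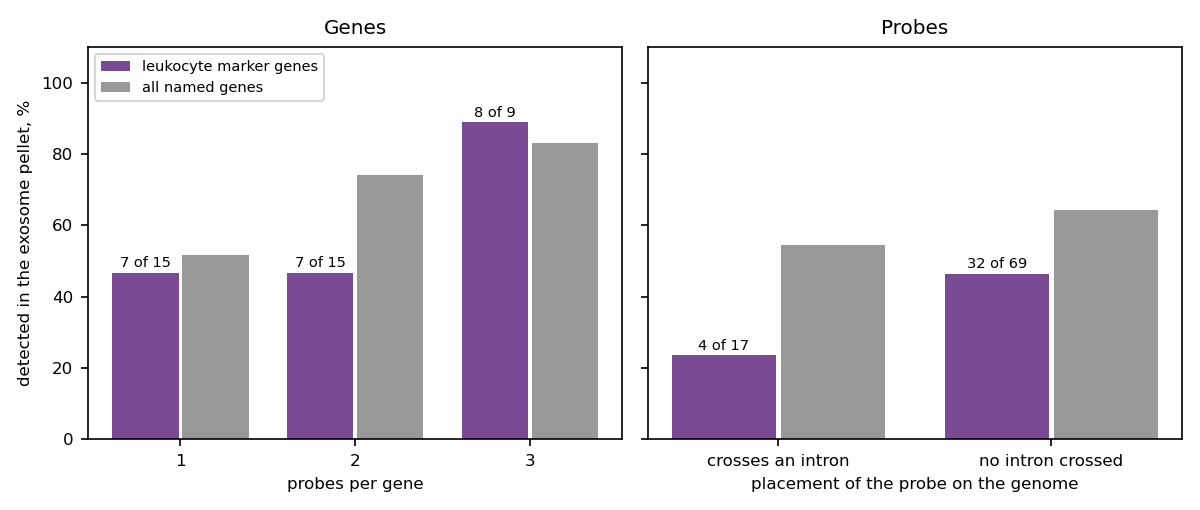
Share called well above background in the exosome pellet (y axis, percent), for leukocyte markers (purple, left bar, with counts) and all named genes or their probes (grey, right bar), by number of probes per gene (left panel) and by whether the probe crosses an intron (right panel). With 2 probes per gene 7 of 15 markers were called against 74.1% of named genes, and 4 of 17 intron-crossing marker probes were called against 54.4% of such probes.

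The place of the called probe along the transcript was compared with that in all named genes. In 12 markers some but not all probes of 1 accession were called in the exosome pellet, and in 9 of them the probe furthest along the transcript was among those called, as for CD3D, CD79A, GZMA, PADI4 and SPI1, against 74.5% of 2899 such transcripts of all named genes. In CD3G, PRF1 and C1QB it was not. In the supernatant this held for 5 of 7, with LCK and CD68 as the exceptions, against 59.4% of 2412 transcripts. A transcript with several called probes, such as that of LCK, meets this count more easily than one with a single called probe.

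Overlapping probes of a gene did not always share a call. Of 6 pairs that share at least 20 bases, 2 had the same calls on both arrays: the LCK probes at bases 1993 and 2003, with 50 bases in common and bounds of 4.38-fold and 3.82-fold, and the CD247 probes at bases 1621 and 1660, with 21 in common and the bounds given above. In the CSF1R pair, with 52 bases in common, both probes were called in the exosome pellet against 1 in the supernatant. In the C1QB pair, which share 57 bases, 1 was called in the exosome pellet at 12.3 ± 2.68 and the other, at 6.50 ± 2.74, was not. In the CD4 pair shown above and the GZMB pair, each with 20 bases in common, 1 probe was called on both arrays and the other on neither.

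The 13 marker probes called on both arrays had a median GC content of 50%, against 45% for the 49 called on neither, where all probes of the array had a median of 45% in both classes. A run of 5 G was in 0 of the 13 marker probes called on both arrays (7.50% of all probes so called), 0 of the 23 called in the exosome pellet alone (2.03%), 0 of the 1 called in the supernatant alone (17.6%) and 1 of the 49 called on neither (2.10%). That probe is for PRF1, at base 1549.

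Other leukocyte genes from a list of the same lineages, none of them among the 46, were called for a somewhat smaller share than the markers on both arrays. Of 105 listed, 92 were on the array, of which 47 were called in the exosome pellet (51.1%), against 25 in the supernatant (27.2%). The markers had 59.5% and 31.0%, and all named genes 69.5% and 23.0%. The T and NK genes of that list were called least, with 7 of 22 in the exosome pellet, against 13 of 22 genes common to all leukocytes, 10 of 16 B cell genes, 8 of 15 neutrophil genes and 9 of 17 macrophage genes. Of the 24 measured on both arrays, 7 passed 2-fold above the median gene (background 37.2%) and 8 passed 2-fold below (background 36.7%), with a median of -0.27. The 4 T and NK genes among them had a median of 2.63, with 3 past 2-fold above and 0 below. The 6 measured T and NK markers had a median of -1.85, with 0 above and 4 below, so these 2 small lists lay on opposite sides. The T cell adaptor LAT stood at 4.49 and the leukocyte integrin chain ITGB2 at 4.71, each by 1 of its probes, and the B cell survival receptor TNFRSF13C at -4.44, TREM1, a myeloid receptor, at -3.64 and PTPRC (CD45), common to all leukocytes, at -2.27.

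The precision is limited by the number of arrays and by the probes. Of 50 probes printed on several spots, 9 were called on both arrays, and the spot-to-spot SD of their difference was 0.18 (log2). Between different probes of 1 gene the SD was 1.74 over the 533 genes with several probes measured on both arrays, and the 2 measured CD4 probes stood at 4.63 and 2.16.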

How the data were processed

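RNA of an exosome pellet and of the supernatant of bovine whey was measured on 1 array each. Per the file headers, the deposited intensity values are processed signals from Agilent Feature Extraction 10.7.3.1, with background subtracted and a spatial trend removed on each array; no scaling links the arrays. The authors' deposited table holds log2 values that match these signals to within 0.001 for 43602 single-spot probes, unscaled and uncentred, with medians of 4.81 (exosome) and 1.32 (supernatant). The scanner software's flags, signal errors and other columns were used as deposited. Both arrays lay on the same slide.

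Control spots and outlier spots (5 exosome, 2 supernatant) were dropped, which left 43652 probes, and no spot was saturated. Detection means the software's well-above-background flag, on any probe of a gene. Differences are log2 exosome minus supernatant, averaged over probes called on both arrays. A bound sets the exosome signal against the higher of the supernatant signal and 8.75, the lowest signal called there. Each array was also scaled to its 75th percentile. Gene names are the files', LOC names left out; accessions of 75 of the 86 marker probes were in the RefSeq table of ARS-UCD2.0, used for names only. An intron is crossed where a probe spans over 65 genomic bases.

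All 46 genes are named by rule, and of each other list at most the 2 furthest measured to either side. The members, lists and alternatives were chosen with earlier results of these data known. No p-value is given. Functions were tested on simulated data. Alternatives were scalings, normexp with offset 50 (limma 3.58.1, R 4.3.3), detection filters, probe rules, updated names, outlier spots kept and the authors' table. Calculations used Python 3.11.15.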

Additional observations from a re-analysis of the deposited data

How the results depend on the processing

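With 1 array per fraction the counts depend on the detection rule and the direction on the scaling. Of 42 markers, 25 were called in the exosome pellet against 13 in the supernatant, with the share of all named genes in parentheses hereafter. With the stricter filter (4 times the lowest called signal) the counts were 15 (57.3%) and 5 (8.77%), with all probes of a gene required 12 (48.0%) and 3 (5.82%), and with the software's weaker flag 31 (84.4%) and 31 (66.5%). Under that flag 14 markers (27%), against 3, had all probes called in the supernatant, and 7 of the 16 on neither array stayed without a call: CD8A, CD8B, TRAT1, MS4A1, BLK, POU2AF1 and MPO.

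The number higher in the exosome pellet by 2-fold or more was 0 of 42 (10.7%) with 75th percentile scaling. It was 1 (11.3%) with that percentile over probes called on both arrays, 3 (26.8%) with array medians, 19 (63.1%) with no scaling, 7 (40.1%) with spike-ins, 1 (17.7%) with normexp, 3 (18.2%) with the weaker flag, 3 (17.7%) without a filter and 1 (16.9%) with the brightest probe per gene. The number higher in the supernatant by as much was 13 (14.7%). It was 7 (8.86%) with array medians, 1 (0.396%) with no scaling, 4 (5.18%) with spike-ins, 5 (8.69%) with normexp, 27 (42.7%) with the weaker flag, 4 (5.96%) with the stricter filter, 38 (65.2%) without a filter and 3 (3.94%) with all probes required.

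The median of the measured markers relative to the median gene, -1.05, was -0.82 with normexp, -1.29 with the weaker flag (26 genes), -1.24 with the stricter filter (5 genes), -2.01 without a filter (42 genes) and 0.31 with all probes required, which left 2 genes. Without a filter LCK stood at 0.0248 and TYROBP at 0.40, above the median gene, as probes not well above background in the supernatant then entered. Of the 12 measured markers, 11 lay below the median gene. This was 9 with quantile scaling, 9 with the weaker flag, 8 without a filter, 10 with the brightest probe, 4 of 5 with the stricter filter, 0 of 2 with all probes required and 9 of 11 with updated names, and 11 with normexp, where CD4 and not CD2 was above. Constant scalings and the authors' table cannot move these values. With updated names 24 of 43 markers were called in the exosome pellet against 12 in the supernatant, as the called GZMB probe left the list and MRC1 entered with 2 probes not well above background. Detection without a filter has no meaning and was not run. No paired analysis was possible because each fraction has 1 array. Signal over background limits every statement on genes called on neither array.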
